A study of Homo sapiens with 36 samples.

Results

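The 146 genes described here were transcribed in platinum-sensitive A2780 wt ovarian cancer cells and were close to or at 0 in their cisplatin-resistant derivative, A2780 cis. They were chosen by level alone: protein-coding genes on autosomes with a mean of at least 5 CPM (a gene's count divided by the library's total on genes, times 1000000) in untreated wt cells and under 0.2 CPM in untreated cis cells, both in complete medium. Among the 57820 genes counted, 184 met both thresholds, 155 of them protein-coding and 152 of those autosomal, and 6 HOX, collagen and PAX2 genes were set aside. The 9675 protein-coding autosomal genes at 5 CPM or more in untreated wt cells were the pool from which the 146 came, which makes them 1.51% of it, and 73 genes had the reverse pattern. Since the difference between untreated wt and cis cells chose the genes, it is given as a description and was not tested.

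RNA of wt, cis and cis SSP cells was sequenced with and without carboplatin, and with and without serine and glycine in the medium (-SG), which gave 12 conditions of 3 libraries each. A2780 is an established ovarian cancer line, cis cells were derived from it by long exposure to cisplatin, and cis SSP cells are cis cells that grew out again after prolonged culture without serine and glycine and regained serine synthesis. Each line is therefore the descendant of 1 cell line, selected in culture, and a difference between the lines cannot be told apart from what that selection carried along. The labels do not name separate cultures and the study calls its RNA-seq replicates technical, so p-values here measure only the spread between these libraries. The labels write the carboplatin dose with an implausible unit and name no treatment time, so neither is given here. These are bulk libraries, in which fewer cells that transcribe a gene and less RNA per cell cannot be told apart.

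A gene that a cell line no longer transcribes can be off because its promoter is methylated, because chromatin over it is compacted, because the factors that drive it are missing, or because its DNA was lost. CpG dinucleotides are the sites at which human promoter DNA is methylated, and promoters dense in them are usually unmethylated where the gene is active. RNA counts alone do not show which of these holds for a gene, and none of them was measured in these libraries.

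Library totals on genes ran from 13074937 to 20441582 counts, so 1 count is less than 0.1 CPM everywhere. Libraries 23 and 24 (cis -SG carbo) stood apart in the share of reads on no gene, which was up to 17.9% against at most 9.31% elsewhere. Without either of them the wt cells were above the cis cells for all 146 genes in -SG medium with carboplatin, and 17 genes were called between cis SSP and cis cells there, as with them. Of 3 mesenchymal markers, VIM was at 3100 CPM in untreated wt, 1820 in cis and 2410 in cis SSP cells, CDH2 at 210, 12.4 and 1070, and FN1 under 1 CPM in all 3. Of 10 epithelial ovarian markers, CDH1, KRT7, MUC16, ESR1, PAX8 and KRT19 were under 0.2 CPM in all 3 untreated lines, while KRT18 was at 0.62, 17 and 10.5 CPM. The summed epithelial markers ran from 1.84 to 23 CPM over the wt libraries, 16.4 to 49.3 over the cis and 10.2 to 19.8 over the cis SSP libraries, and their part in the results was not tested. The leukocyte markers PTPRC, CD14 and CD3E were under 0.2 CPM in each line, and the endothelial markers VWF and CDH5 summed to at most 0.407 CPM in any wt library, so the immune genes below were read in libraries in which those defining markers were near 0.

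The promoters of the 3 most abundant of the 146 genes and of the 3 most abundant genes that came back in cis SSP cells are shown among those with a sequence that could be shown, because promoter CpG content is the sequence feature that bears on methylation. Each line gives the 250 bases before a RefSeq transcription start, 5′ to 3′ on the gene's strand, with CpG dinucleotides in capitals. Where RefSeq gave several starts, the window richest in CpG was taken. Each stretch matched GRCh37 exactly and once on its chromosome: MEST at chr7:130131676-130131925 (plus strand), ARHGAP28 at chr18:6834234-6834483 (plus strand), CCR1 at chr3:46249805-46250054 (minus strand), GPC5 at chr13:92050625-92050874 (plus strand), FOXN4 at chr12:109747090-109747339 (minus strand) and CYB5R2 at chr11:7694732-7694981 (minus strand).
MEST: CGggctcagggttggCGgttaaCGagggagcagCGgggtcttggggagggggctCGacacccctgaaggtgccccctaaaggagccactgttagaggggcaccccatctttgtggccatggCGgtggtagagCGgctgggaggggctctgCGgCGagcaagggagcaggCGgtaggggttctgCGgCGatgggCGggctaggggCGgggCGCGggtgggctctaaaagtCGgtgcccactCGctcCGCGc
ARHGAP28: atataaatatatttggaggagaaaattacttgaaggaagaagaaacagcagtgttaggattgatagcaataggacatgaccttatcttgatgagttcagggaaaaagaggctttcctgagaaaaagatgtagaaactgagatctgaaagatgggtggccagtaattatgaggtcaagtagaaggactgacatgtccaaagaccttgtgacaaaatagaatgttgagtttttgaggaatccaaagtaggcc
CCR1: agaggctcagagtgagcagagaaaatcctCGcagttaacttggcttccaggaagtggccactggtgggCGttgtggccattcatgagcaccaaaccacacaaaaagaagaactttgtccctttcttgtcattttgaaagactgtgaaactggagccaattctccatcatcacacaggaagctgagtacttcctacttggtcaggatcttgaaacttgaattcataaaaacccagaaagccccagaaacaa
GPC5: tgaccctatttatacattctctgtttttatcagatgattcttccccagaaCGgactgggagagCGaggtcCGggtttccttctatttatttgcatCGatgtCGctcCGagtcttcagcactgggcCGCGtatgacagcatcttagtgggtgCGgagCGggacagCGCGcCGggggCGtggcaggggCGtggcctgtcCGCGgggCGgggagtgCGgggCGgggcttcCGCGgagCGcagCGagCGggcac
FOXN4: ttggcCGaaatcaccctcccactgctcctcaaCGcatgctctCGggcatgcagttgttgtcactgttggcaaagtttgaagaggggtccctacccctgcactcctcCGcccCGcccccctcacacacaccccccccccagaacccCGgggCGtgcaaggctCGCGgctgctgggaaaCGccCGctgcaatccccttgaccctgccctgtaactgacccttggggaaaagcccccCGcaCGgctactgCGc
CYB5R2: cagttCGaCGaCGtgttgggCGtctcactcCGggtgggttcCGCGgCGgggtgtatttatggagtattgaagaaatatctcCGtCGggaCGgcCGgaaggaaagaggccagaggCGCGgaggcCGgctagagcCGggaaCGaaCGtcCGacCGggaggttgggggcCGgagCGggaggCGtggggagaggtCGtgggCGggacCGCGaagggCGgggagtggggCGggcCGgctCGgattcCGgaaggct

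These stretches differed widely. The ARHGAP28 stretch held 0 CpG and the CCR1 stretch 2, while CYB5R2 held 32, GPC5 25, MEST 20 and FOXN4 14, so both CpG-poor and CpG-rich promoters occur among genes that were off in cis cells. Of the 146 genes 109 had a RefSeq promoter window of 300 bases, and 49 of these (45.0%) were CpG-dense in the first window listed, that is, at least 55% G and C with an observed-to-expected CpG ratio of at least 0.6. The same share was 82.0% of 7574 genes at 5 CPM or more in both wt and cis cells, 27.2% of 3842 genes under 0.2 CPM in both, and 44.2% over all 27305 genes with a window. Taking any window of a gene gave 55% for the 146 genes against 88.6%, 30.1% and 47.7%. Among the 9 genes that came back, 3 of the 7 with a window were CpG-dense in the first window. The share among the 146 genes thus lay between that of genes on in both lines and that of genes off in both, as a description with no test. In the first window it was also close to the share over all genes with a window (45.0% and 44.2%).

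The 146 genes ranged from 5.14 to 827 CPM in untreated wt cells, with a median of 15.9, and 20 of them were at 100 CPM or more. In untreated cis cells 44 had no count in any of the 3 libraries, another 49 had 1 to 3 counts in all, and no gene had more than 6 counts in a library, against a lowest count of 82 in a wt library. The most abundant was MEST, a paternally expressed imprinted gene, at 812, 834 and 835 CPM in the wt libraries and 0.327, 0.160 and 0.109 in the cis libraries. ARHGAP28, a GTPase-activating protein, followed at 495, 511 and 497 CPM in wt against 0.131, 0 and 0.0547 in cis. All 3 wt libraries of these genes stood far above all 3 cis libraries, as they did by construction for every gene chosen.

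The next most abundant were the chemokine receptor CCR1 (mean 338 CPM in wt), the interferon-induced antiviral protein BST2 (282), the homeobox factor DLX5 (245), the transcription factor MEF2C (241), MAB21L1 (237), MTUS1 (229), MAB21L2 (208), CPED1 (177), OTOA (175) and the RNA-binding pluripotency factor LIN28A (166). Per kilobase of exon the order changed for some: BST2 was at 256 CPM per kilobase, MEST at 174, DLX5 at 140.5, CCR1 at 128 and ARHGAP28 at 42.1. Just inside the wt threshold were F2RL2, SAMD10 and SLC6A15 at 5.14 to 5.26 CPM, and just outside it GIPC3, CRABP1 and CCSER1 at 4.74 to 4.89. Just inside the cis threshold were MEST, TWIST1 and PDGFD at 0.195 to 0.199 CPM, and just outside it SETBP1, NEGR1 and EPB41L3 at 0.204 to 0.209.

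By what their products do, 65 of the 146 genes were put into 5 groups, a sorting made after the values were seen. There were 22 DNA-binding transcription factors, many of them regulators of development (DLX5, DLX6, TWIST1, SOX9, RUNX2, ALX1, SIX3, PRRX1, TBX18, FOXL2). There were 14 immune and inflammatory genes (CCR1, BST2, RGS1, the inflammatory caspases CASP1 and CASP4, GBP4, the cytokines IL32 and IFNG, and the cytokine subunit EBI3), 11 genes of adhesion, junctions and matrix (the desmosomal cadherins DSC1, DSC2 and DSG2, claudins CLDN8 and CLDN17, laminin LAMA1), 12 channels and transporters (KCNMA1, TRPC4, SLC1A3, ABCD2) and 6 metabolic enzymes (ASS1, ME1, MAT1A, CYB5R2, B3GALT1, GCNT2).

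**Figure D1:**
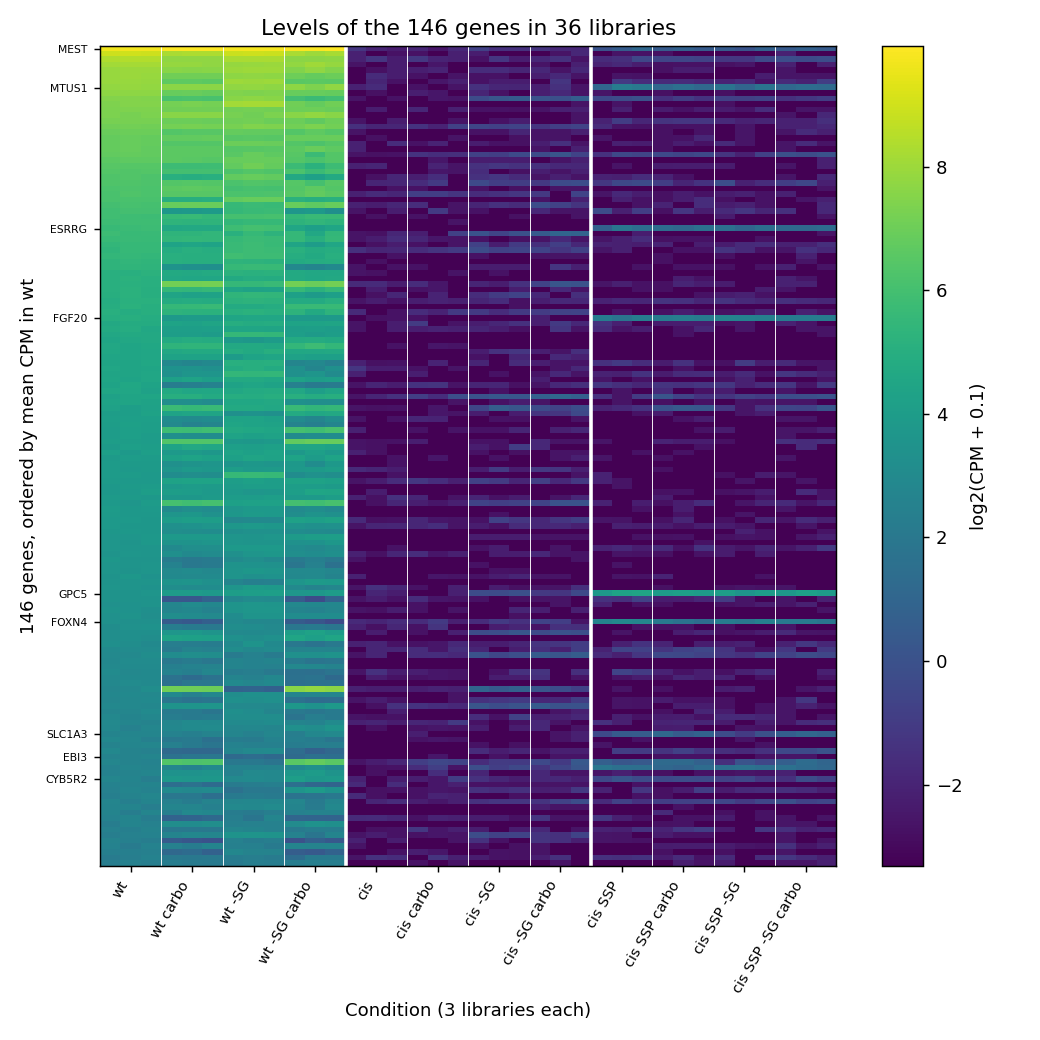
Levels of the 146 genes (rows, ordered by mean CPM in untreated wt cells) in 36 libraries (columns), as log2(CPM + 0.1), with thick white lines between wt, cis and cis SSP cells and the 9 genes that came back named at the left. The wt columns are bright throughout, the cis columns are dark, and only a few rows such as GPC5 at a mean of 18.7 CPM brighten in cis SSP cells.

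The difference between wt and cis cells was next read in the 3 conditions that the choice of genes did not use. With carboplatin in complete medium all 146 genes were higher in wt than in cis cells (edgeR quasi-likelihood test, Benjamini-Hochberg adjusted p under 0.05), against 41.6% of the 14668 genes tested. In -SG medium 145 were higher, against 40.3% of 14939 genes (40.8% were lower and 81.1% called in all), and in -SG medium with carboplatin all 146 were, against 37.2% of 15086 (74.2% called in all). Genes near 0 in cis cells could enter these tests only through their wt level. That fixed the direction of their calls, and nothing is read from these counts. On library counts, with 3 counts over the cis libraries as a floor, the median ratio was at least 173-fold with carboplatin, 197-fold in -SG medium and 129-fold with both. The lowest wt library was above the highest cis library for all 146 genes with carboplatin (37.6% of the 9675 genes of the pool), 145 in -SG medium (44.2%) and all 146 with both (36.5%).

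The exception was IL32, a pro-inflammatory cytokine. In -SG medium its wt libraries were at 1.71, 1.86 and 1.56 CPM and its cis libraries at 1.84, 1.27 and 1.55. The groups overlapped. In complete medium its wt libraries had been at 6.84, 7.19 and 8.89 CPM and its cis libraries at no more than 0.131. FOXN4, a forkhead factor of retinal and spinal cord development, had the smallest ratio in the carboplatin conditions, 5.74-fold in complete and 2.89-fold in -SG medium. Its wt level with carboplatin was 1.32, 1.18 and 1.53 CPM, against 10.2, 10.0 and 10.1 without.

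Of the 146 genes 9 were at a mean of 1 CPM or more in untreated cis SSP cells, 6.16% of them, against 22 genes or 0.398% of the 5521 protein-coding autosomal genes that were under 0.2 CPM in both wt and cis cells. These 9 are called returned below. Among 165 genes at 1 to 5 CPM in wt and under 0.2 CPM in cis cells, 5 (3.03%) reached that level. At 0.5 CPM it was 12 of the 146 genes (8.22%), against 1.16% of the 5521 and 9.7% of the 165 genes. At 0.2 CPM the shares were 18.5%, 4.33% and 22.4%. The order of the 146 and the 165 genes thus depended on the threshold. At 2 CPM 6 of the 146 genes remained, and the genes just under 1 CPM were DSC2 at 0.783, CPED1 at 0.755 and ARL10 at 0.566.

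GPC5, a glypican that binds growth factors at the cell surface, was the only returned gene above its wt level in complete medium. It was at 11, 11.1 and 12.2 CPM in wt, 0, 0.160 and 0.109 in cis and 14.6, 20.2 and 21.1 in cis SSP libraries, all 3 of the last above all wt libraries. Its cis SSP level was 198 times its cis level, with a 95% interval of 84.4 to 610 that covers counting error only. FOXN4 came back to 6.16, 7.63 and 6.70 CPM in cis SSP libraries, 67.4% of its wt level, and CYB5R2, a cytochrome b5 reductase, to 3.67, 2.94 and 2.79 CPM, 51.1% of its wt level. For these 2 genes the cis SSP libraries lay below the wt libraries and above the cis libraries without overlap.

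The other returned genes stayed far below wt. FGF20, a fibroblast growth factor, was at 30.4, 32 and 29.4 CPM in wt and 4.70, 3.38 and 4.80 in cis SSP libraries. EBI3 reached 20.3% of its wt level and SLC1A3, a glial glutamate transporter, 16.6%. ESRRG, an orphan nuclear receptor, had no count in any of the 12 cis libraries and came to 1.66, 3.56 and 2.68 CPM in cis SSP cells, at least 46.5 times the level that 3 counts would give in cis cells and 5.03% of wt. MTUS1, a microtubule-associated protein, returned to 1.56% of its wt level and MEST to 0.178%, the latter at 0.969, 1.38 and 2.06 CPM. For MTUS1 and MEST a return of more than 1 CPM was thus a small part of what wt cells held.

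**Figure D2:**
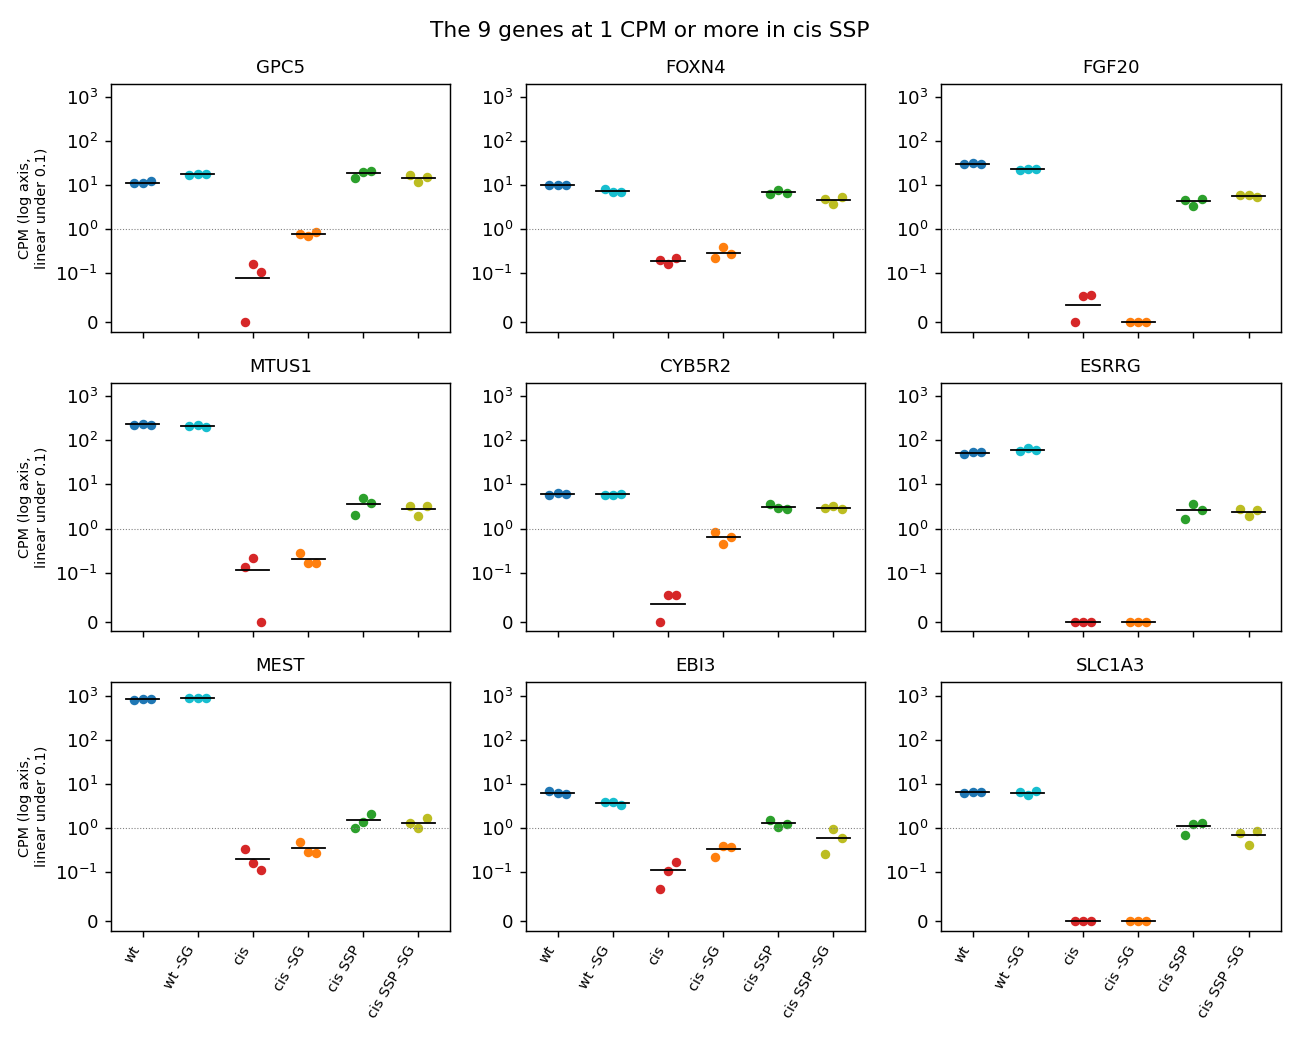
CPM of the 9 returned genes in untreated libraries of wt, cis and cis SSP cells in complete and -SG medium, on a log axis that is linear under 0.1 CPM, with a dot per library, a bar at the mean of 3 and a dotted line at 1 CPM. GPC5 in cis SSP cells (mean 18.7 CPM) reaches the wt dots (11.4), while MEST (1.47) stays far under them (827).

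Cis SSP cells were next tested against cis cells within each condition that the choice did not use. A gene at 0 in cis cells enters such a test only where it is high enough in cis SSP cells, so few of the 146 genes could be tested and their counts are no measure of how often genes came back. In -SG medium 15 could be tested, of which 7 were higher in cis SSP than in cis cells (21.6% of all 14342 genes were) and 7 lower (23.2%, and 44.8% were called in all). The 7 higher were the returned genes other than EBI3 and SLC1A3, which were not abundant enough to test. GPC5 was higher by a log2 fold change of 4.29 ± 0.20 (SE, adjusted p = 6.37e-05), FOXN4 by 4.03 ± 0.26 (0.000153), MTUS1 by 3.84 ± 0.35 (0.000466), CYB5R2 by 2.27 ± 0.23 (0.000685) and MEST by 1.99 ± 0.32 (0.00372), by edgeR. FGF20 and ESRRG had no count in cis -SG libraries and were at least 106-fold and 45.6-fold higher on the 3-count floor. FOXN4, MTUS1 and MEST were at 0.291, 0.199 and 0.344 CPM in cis -SG cells and entered the test through their cis SSP level. That fixed the direction of their calls, so their p-values are not read as evidence that they came back.

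The 7 lower in cis SSP -SG than in cis -SG cells were IL32, DSG2, CASP4, ZFHX4, KCNMA1, NIPAL4 and CPED1, genes that had reached between 0.777 and 1.56 CPM in cis -SG cells. Those near 0 in cis SSP -SG cells could enter the test only through their cis -SG level. That fixed the direction of their calls, so nothing is read from the 7. DSG2 was at 1.03, 0.773 and 0.965 CPM in cis -SG libraries and 0.0498, 0 and 0.0544 in cis SSP -SG libraries, and did not overlap between them. With carboplatin in complete medium 12 of the 146 genes could be tested and all were higher in cis SSP cells (34.7% of 13882 genes were, and 69.2% were called in all), namely the 9 returned genes, KCNMA1, LAMA1 and DSC2. The filter fixed that direction, so nothing is read from the count. With both, 19 could be tested, 11 were higher (37.3% of 14313) and 6 lower (36.5%, and 73.8% were called in all). Here too a gene near 0 in 1 line entered only through the other, so nothing is read from these counts. The 11 were the 9 returned genes, CCR1 and EBF2.

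Against wt cells in -SG medium, 145 of the 146 genes were lower in cis SSP cells, where 23.9% of 14630 genes were (46.0% were called in all). Genes near 0 in cis SSP cells could enter this test only through their wt level, so nothing is read from that count. The gene that did not pass was GPC5, at 16.6, 17.4 and 18.2 CPM in wt and 16.9, 11.4 and 15.3 in cis SSP libraries (log2 fold change -0.24 ± 0.15, adjusted p = 0.238 by edgeR). FOXN4 was below wt by edgeR with a log2 fold change of -0.65 ± 0.16 (adjusted p = 0.0163), a call that was lost without wt -SG library 7 (adjusted p = 0.0701 by edgeR), and CYB5R2 by -0.99 ± 0.13 (0.00114). Library 32, 1 of the 3 cis SSP -SG libraries, gave the lowest GPC5, FOXN4 and MTUS1 values of its condition.

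In cis cells without serine and glycine the summed level of the 146 genes was higher than with them, and so was that of other silent genes. The 146 genes' summed level was 7.65 to 9.03 CPM in untreated cis libraries, 10.2 to 10.9 with carboplatin, 21.6 to 25.2 in -SG medium and 25.4 to 29.8 with both, against 7293 to 7464 in untreated wt libraries. At 0.2 CPM or more were 0, 18, 34 and 36 of them. Of the 5521 genes under 0.2 CPM in both lines, 0%, 1.67%, 7.53% and 10.9% reached 0.2 CPM in the same conditions, and their summed level went from 96.4 to 127, 362 and 459 CPM. Among the 165 genes at 1 to 5 CPM in wt and under 0.2 CPM in cis cells the shares were 0%, 9.09%, 23.6% and 33.3%, next to 0%, 12.3%, 23.3% and 24.7% of the 146 genes. Whether the rise reflects the genes themselves or the makeup of these libraries was not tested.

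IL32 was highest, at 0.131, 0.107 and 0.109 CPM in untreated cis libraries and 1.84, 1.27 and 1.55 in cis -SG libraries. NIPAL4, a magnesium transporter, came to 0.922, 1.16 and 1.07 CPM and KCNMA1, a calcium-activated potassium channel, to 0.597, 1.44 and 1.07. All of these were above every untreated cis library of the same gene, and none came near wt except IL32. Genes near 0 in cis carbo libraries could be tested only where they were high in cis -SG carbo libraries, which fixes the direction of the calls that follow, so nothing is read from their number. With carboplatin present, 7 of the 146 genes could be tested between cis cells without and with serine and glycine, and CPED1, ZFHX4, CASP4, TMEM156, DSG2 and NIPAL4 were higher without (35.2% of 14236 genes were higher, 35% lower and 70.2% called in all). TMEM156 was at 0.226, 0.229 and 0.185 CPM in cis carbo and 1.38, 1.03 and 1.33 in cis -SG carbo libraries (log2 fold change 2.43 ± 0.39, adjusted p = 5.36e-05 by edgeR). The count was 7 without library 23, 8 without library 24, 9 without library 22, and 11, 12 and 11 without cis carbo libraries 16, 17 and 18. Library 22, the cis -SG carbo library with an ordinary share of reads on no gene, had the lowest summed level of its condition, 25.4 CPM. Adding carboplatin to cis -SG cells moved 2 of the 12 genes that could be tested, ZFHX4 up and IL32 down, where 10.9% and 11.6% of 14476 genes moved in those directions. The count was 2 without library 23 and 0 without library 24. Neither call held in each fit without a library, and neither passed with DESeq2 (adjusted p = 0.143 and 0.131).

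**Figure D3:**
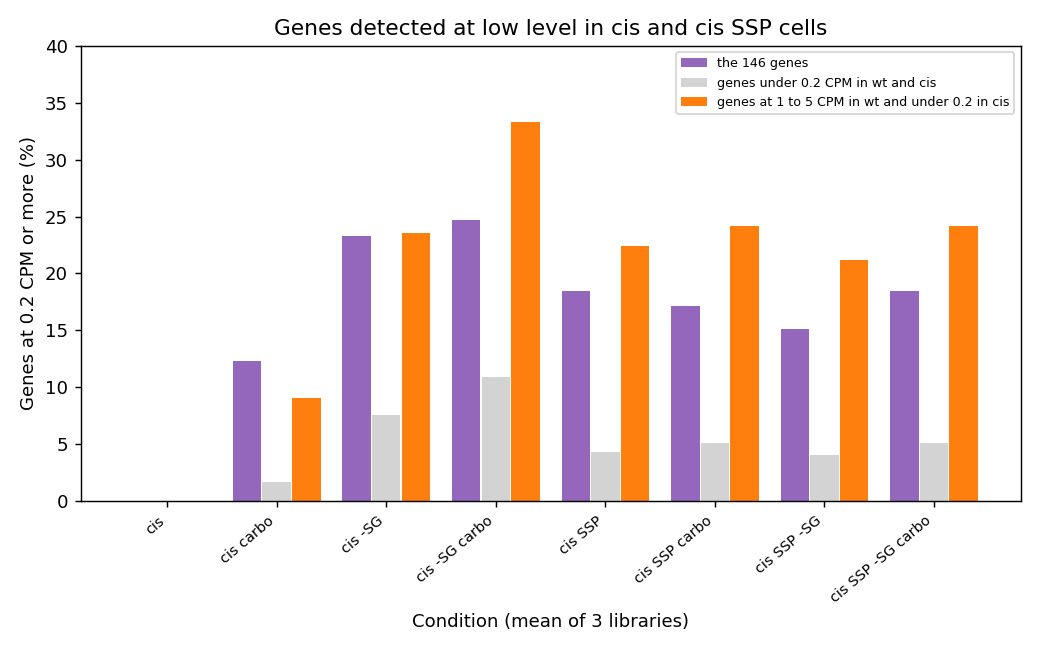
Share of genes at a mean of 0.2 CPM or more in the 8 conditions of cis and cis SSP cells, for the 146 genes, for 5521 genes under 0.2 CPM in both lines and for 165 genes at 1 to 5 CPM in wt and under 0.2 in cis. The bars of the 146 genes rise to 24.7% in cis -SG carbo and those of the genes silent in both lines to 10.9%.

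In wt cells, where all 146 genes could be measured, carboplatin changed most of them. In complete medium 88 fell and 40 rose (39.0% and 38.9% of the 14639 genes tested did, 77.8% in all), and in -SG medium 77 fell and 37 rose (34.6% and 34.3% of 14467, 68.9% in all). The median log2 fold change was -0.27 in complete and -0.30 in -SG medium, next to -0.00074 and -0.007 over all genes tested. The comparison in complete medium shares its untreated wt libraries with the choice of the genes and the comparison in -SG medium does not. In both media the same 70 genes fell (47.9%, against 29.4% of the 14266 genes tested in both) and the same 31 rose (21.2%, against 29%).

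IL32, EBI3, TM4SF1, ABCA5 and TP53INP1 had the largest rises. IL32 went from 6.84, 7.19 and 8.89 CPM to 134, 132 and 126 (log2 fold change 4.16 ± 0.05, adjusted p below the smallest number the software stores). EBI3, a subunit of the cytokines IL-27 and IL-35, rose from 6.73, 6.13 and 5.91 to 80.1, 76.2 and 79.9 CPM (3.72 ± 0.06, 1.68e-300). TP53INP1, a p53-induced regulator of autophagy and cell death, rose from 33, 34.6 and 33.3 to 140, 142 and 147 CPM (2.15 ± 0.04, 1.3e-294). Treated and untreated libraries of these genes did not overlap.

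TM4SF1, a tetraspan surface protein, rose by 2.37 ± 0.05 on the log2 scale and ABCA5, a lipid transporter, by 2.22 ± 0.05. In -SG medium the same 5 genes rose, IL32 from 1.71, 1.86 and 1.56 to 192, 223 and 204 CPM (6.95 ± 0.10, adjusted p = 1.95e-10). Of the 14 immune and inflammatory genes 8 rose and 6 fell in complete medium, and 9 rose and 2 fell in -SG medium, where 38.9% and 39.0%, and 34.3% and 34.6%, of all genes tested rose and fell. Among them were CASP1 (log2 fold change 0.83 and 0.95) and CASP4 (0.48 and 1.22) up and CCR1 (-0.58 and -0.55) down. DSC2 rose by 1.18 and 0.99 and DSG2 by 0.74 and 0.80.

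The largest falls were in ABCD2, a peroxisomal fatty acid transporter, FOXN4, SUN3, CD248 and FRRS1. ABCD2 was at 11.1, 11.4 and 11.4 CPM in untreated and 1.11, 1.12 and 1.70 in treated wt libraries (log2 fold change -3.04 ± 0.15, adjusted p = 4.14e-76). FOXN4 fell by 2.84 ± 0.15 and SUN3, a nuclear envelope protein, by 2.22 ± 0.19. CD248, the stromal surface protein endosialin, was at 59.5, 63.4 and 62.5 CPM untreated and 13, 13.7 and 14.7 treated, a fall of 2.10 ± 0.06. FRRS1, a ferric reductase, fell by 1.99 ± 0.09, and none of these genes overlapped between treated and untreated libraries. In -SG medium all 5 fell as well, by 2.00 to 2.81.

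Of the 22 transcription factors 14 fell and 4 rose with carboplatin in complete medium, and 14 fell and 3 rose in -SG medium. Of all 146 genes 60.3% fell and 27.4% rose in complete medium and 52.7% fell and 25.3% rose in -SG medium, and of all genes tested 39.0% and 38.9%, and 34.6% and 34.3%. Nothing particular to a role group is read from its counts, since the groups were sorted after the values were seen. MEF2C fell by 0.77 and 0.72 on the log2 scale in the 2 media and DLX5 by 0.28 and 0.41, while SOX9 rose by 0.63 and 0.86. Of the 6 metabolic enzymes 5 fell in each medium. Of the returned genes, MEST rose by 0.31 and 0.18 and ESRRG fell by 0.98 and 1.49 in wt cells. The genes called in opposite directions in the 2 media were FRY, SEMA6D, L3MBTL4, GPC5 and CARD16. They were 3.42% of the 146 genes, against 2.32% of the 14266 genes tested in both media.

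**Figure D4:**
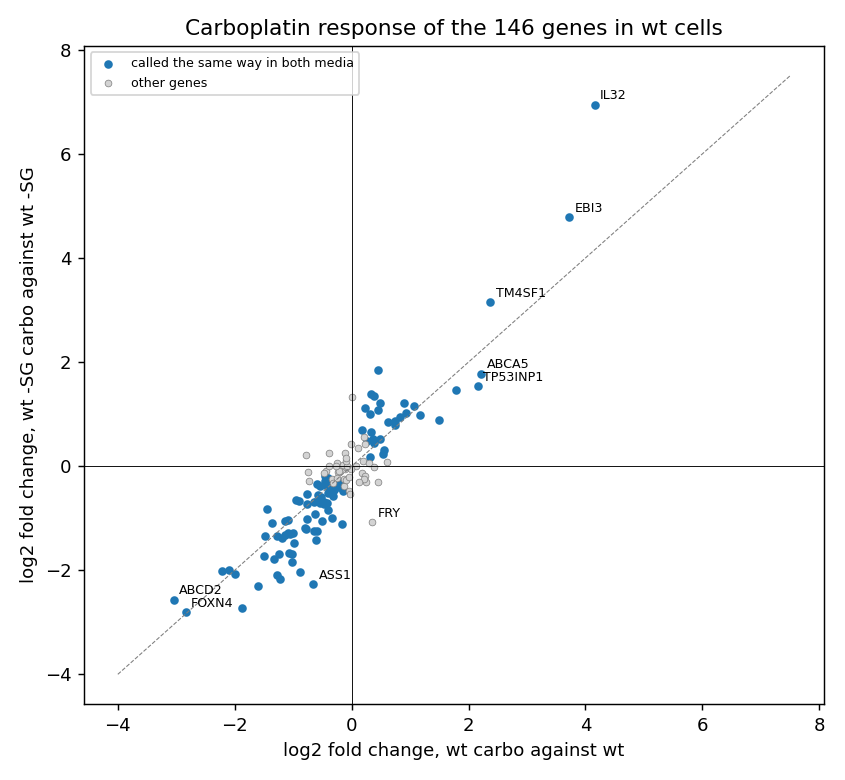
Log2 fold change with carboplatin in wt cells of the 146 genes, in complete medium (x axis) and in -SG medium (y axis), with the 101 genes called the same way in both media in blue and a dashed line of equal change. IL32 (4.16 and 6.95) and EBI3 (3.72 and 4.79) lie at the upper right and ABCD2 (-3.04 and -2.56) and FOXN4 (-2.84 and -2.81) at the lower left.

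Withdrawal of serine and glycine had smaller effects in untreated wt cells. It raised 52 of the 146 genes and lowered 44 (24.1% and 25.1% of 14284 genes tested), with a median log2 fold change of 0.03 against 0.0085 over all genes, and 5 of them changed by a log2 of 1 or more. The untreated wt libraries of this comparison also chose the genes. The calls numbered 96 in all and 36 in 1 fit over the 36 libraries. ASS1, the enzyme that makes argininosuccinate from citrulline and aspartate, rose most, from 15.3, 15.4 and 13.9 to 48.0, 49.1 and 46.7 CPM (1.70 ± 0.06, adjusted p = 6.68e-15 by edgeR). FRY rose by 1.07 ± 0.10, STRA6, the retinol-binding protein receptor, by 0.99 ± 0.05, ME1, the cytosolic malic enzyme that makes NADPH, by 0.83 ± 0.05 and OTOA by 0.72 ± 0.03. The -SG libraries of all 5 were above the libraries with serine and glycine.

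IL32 fell most, by 2.13 ± 0.16, followed by the activation marker CD69 (1.38 ± 0.14), CLDN17 (1.01 ± 0.10), A1CF, a cofactor of RNA editing (0.80 ± 0.09), and the ubiquitin ligase TRIM9 (0.80 ± 0.09). CD69 was at 6.12, 6.08 and 6.60 CPM with and 2.35, 2.55 and 2.21 without serine and glycine, with no overlap. Of the 14 immune and inflammatory genes 9 fell and 2 rose. Of the 22 transcription factors 10 rose and 6 fell. Of all 146 genes 35.6% rose and 30.1% fell, and of all genes tested 24.1% and 25.1%.

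Between the 2 media in the presence of carboplatin only 3 of the 146 genes were called, IL32 and TM4SF1 higher and MAT1A, a methionine adenosyltransferase, lower without serine and glycine, where 0.623% and 0.0969% of 14454 genes were. Another 24 had an unadjusted p under 0.05, a number for which the share over all genes is not given. The count of called genes was 30 without library 11 (wt -SG carbo) and 0 without library 5 or library 6 (wt carbo). It thus rests on single libraries. IL32 was at 134, 132 and 126 CPM in wt carbo and 192, 223 and 204 in wt -SG carbo libraries.

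Whether carboplatin acted differently in the 2 media was tested with an interaction term in wt cells. The carboplatin effect was higher without serine and glycine for 23 of the 146 genes and lower for 36, against 14.6% and 13.1% of 15247 genes. The fit includes the untreated wt libraries that chose the genes, and in 1 fit over the 36 libraries 26 genes were called in place of 59. ASS1 had the lowest interaction: carboplatin lowered it from 14.9 to 9.03 CPM in complete medium and from 47.9 to 9.55 in -SG medium (difference in log2 fold change -1.62 ± 0.11, adjusted p = 4.58e-08). Treated cells were thus at like levels in both media while untreated cells were not, and the libraries of the 2 treated groups overlapped. IL32 had the highest interaction (2.78 ± 0.15, 4.05e-09).

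In cis SSP cells carboplatin and the medium moved few of the 146 genes past the test. With edgeR, 0 of the 13 genes that could be tested were called with carboplatin in -SG medium, where 1.17% of 13541 genes rose and 0.295% fell, and 6 had an unadjusted p under 0.05. DESeq2 called 1, EBI3 (adjusted p = 0.0255). Without library 32 edgeR called 5, all higher with carboplatin. Shares over all genes are not given for these fits or for unadjusted p-values, so nothing is read from such counts. EBI3 was at 0.249, 0.942 and 0.599 CPM without and 1.51, 2.53 and 1.89 with carboplatin, and SLC1A3 at 0.748, 0.404 and 0.871 without and 1.44, 1.98 and 1.65 with. The libraries did not overlap for either gene, but the edgeR test did not pass (adjusted p = 0.144 and 0.101). Between the media with carboplatin present 0 of 16 genes were called, where 9.76% of 13747 genes were (4.93% higher and 4.83% lower), and 1 had an unadjusted p under 0.05. DESeq2 called 0 as well.

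The genes were not spread evenly over the chromosomes, as a description with no test. By GRCh37 position 54 of them lay within 1 Mb of another, in 22 runs of 2 to 4 genes. No such share is given for other genes of the pool, so nothing is read from the 54. Chromosome 18 held 12 of the 146, which was 8.0% of its protein-coding genes at 5 CPM or more in wt, against 1.51% over all autosomes and at most 2.35% on any other chromosome. Of these 12, TMEM200C, L3MBTL4, ARHGAP28 and LAMA1 formed a run, the desmosomal cadherin genes DSC2, DSC1 and DSG2 a further run, and KLHL14, CCDC178 and ASXL3 another. On chromosome 11 CASP4, CASP1 and CARD16 formed a run with PDGFD, which lay 778486 bases from the nearest of them. On chromosome 7 DLX6 lay beside DLX5. In these runs no other gene at 5 CPM or more in wt cells lay between the members.

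Elsewhere genes still transcribed in cis cells lay among silent ones, some of them at a reduced level. The run of FGF20, MTUS1 and FGL1 on chromosome 8 also held 6 other genes at 5 CPM or more in wt cells, and 5 of them were at 1 CPM or more in cis cells. Of the 6, SLC7A2, PDGFRL, ZDHHC2, MICU3 and VPS37A were nevertheless lower in cis than in wt cells, and CNOT7 was not. The 9 other such genes within 1 Mb of MTUS1 had a median log2 ratio of wt to cis of 2.37. FGF20 and MTUS1 were among the returned genes and FGL1 was not. Over all 146 genes, 1093 other protein-coding autosomal genes at 5 CPM or more in wt lay within 1 Mb, and 1066 of them were at 1 CPM or more in cis cells, with a median log2 ratio of wt to cis of 0.0499 (-0.0206 over the whole pool). The share of genes at 1 CPM or more in cis cells is not given for the whole pool, so nothing is read from it. Copy number was not measured in these libraries.

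**Figure D5:**
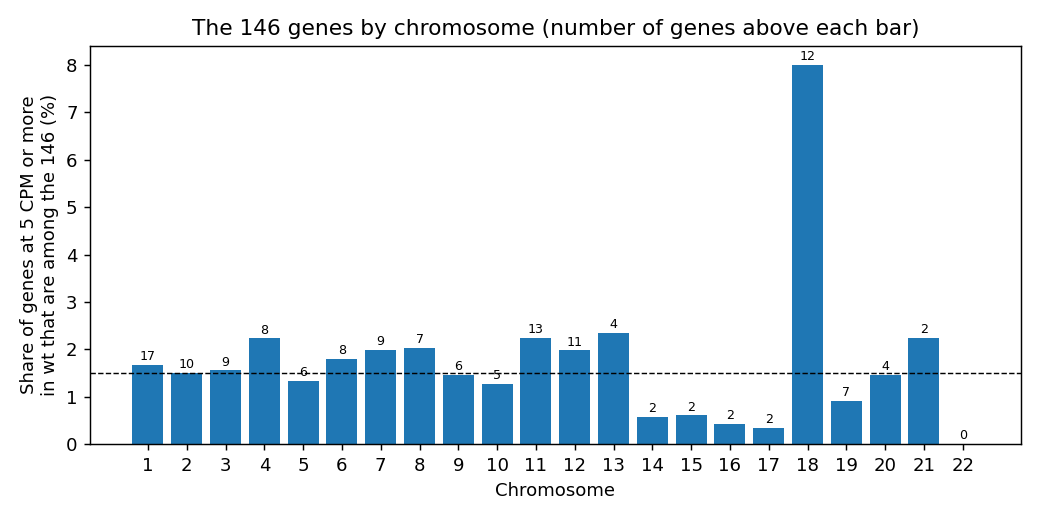
Share of protein-coding genes at 5 CPM or more in untreated wt cells that are among the 146 (y axis, percent) for each autosome (x axis), with the number of genes above each bar and a dashed line at the share over all autosomes, 1.51%. Chromosome 18 stands out at 8.0%.

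Genes that write, erase or read silencing marks were themselves measured, as 28 genes of a list of DNA methyltransferases, TET enzymes, Polycomb subunits, histone deacetylases and their partners. In -SG medium 20 were higher and 3 lower in wt than in cis cells (40.3% and 40.8% of all genes tested were), and with carboplatin in complete medium 10 were higher and 11 lower (41.6% and 40.3%). DNMT1, the maintenance methyltransferase, was at 413 CPM in untreated wt and 383 in untreated cis cells, and TET1, which oxidises methylcytosine, at 85.9 and 22.7. DNMT1 was higher in wt than in cis cells in -SG medium (log2 fold change 0.12, adjusted p = 0.000587 by edgeR) and lower with carboplatin in complete medium (-0.72, 1.96e-31). In -SG medium TET1 was at 88.0 CPM in wt and 6.18 in cis cells (log2 fold change 3.87 ± 0.12, adjusted p = 4.3e-09 by edgeR), and the de novo methyltransferase DNMT3B at 34.9 and 7.23 (2.30 ± 0.08, 2.06e-16). With carboplatin TET1 and DNMT3B did not pass between the lines (log2 fold change 0.03 and -0.07, adjusted p = 0.734 and 0.345). Levels of these genes do not show the state of any promoter.

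Other lists were examined for the 146 genes, out of 18459 protein-coding autosomal genes they could come from. The 146 included 1 of 22 imprinted genes (MEST) and 3 of 44 adhesion and junction genes (ITGA8, DSG2 and DSC2). They included 0 of 38 genes often silenced by promoter methylation in cancer. Of 20 germline genes that DNA methylation keeps off in body tissues they included 0. Listed genes below the wt threshold could not be among the 146. Those reduced in cis cells but not under the cis threshold were not counted either. How many listed genes met the wt threshold is not given, so a count of 0 does not show that they kept their level. With carboplatin in complete medium 10 of the 16 imprinted genes that could be tested were higher in wt than in cis cells and 2 lower, and 16 of the 26 junction genes were higher and 10 lower. Of the often methylated genes 13 of 23 were higher and 8 lower, next to 41.6% and 40.3% of all genes tested.

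Reads were counted on exons with a strand setting that is not given in the sources used here. Of the 146 genes 59 share exon bases with another annotated gene, 51 of them with a gene on the opposite strand and 12 with one on the same strand. MEST shares bases with MESTIT1 and COPG2, DLX6 with DLX6-AS1, MTUS1 with PDGFRL and SLC1A3 with SLC1A3-AS1, so without strand their reads cannot be told apart there. CARD16 resembles CASP1 closely and shares bases with CARD17P, and the values of CARD16 and CASP1 are less certain for that reason.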

How the data were processed

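RNA of A2780 wt, cis and cis SSP cells was sequenced, 3 libraries in each of 12 conditions. The authors deposited raw counts per gene, from reads aligned with STAR to GRCh37.p13 and counted with HTSeq, per the labels. The treatment of reads with several alignments is not given in the sources used here. Groups followed the labels. CPM was computed from the counts as deposited, over the total of the gene rows, after 3 rows naming no gene were left out. Symbols, positions and biotypes came from a GENCODE annotation of GRCh37, which named 55538 of 57820 identifiers, and promoters from RefSeq (109 of 146 genes matched).

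Tests used edgeR 4.0.16 (R 4.3.3): TMM scaling, filterByExpr, robust quasi-likelihood fits of the 2 conditions compared (4 wt conditions for the interaction), with Benjamini-Hochberg adjustment over all genes tested and a threshold of 0.05. The scripts were tested on simulated data. Alternatives were DESeq2 1.42.0, its size factors in edgeR, no TMM, no filter, 1 fit over the 36 libraries and leaving out each library. Intervals of count ratios are exact binomial at 95%, and a group at 0 was set to a floor of 3 counts over its libraries. Depth limits low levels: intervals and floors cover counting error only.

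The 146 genes and the lists were chosen with earlier results of these data known. Named genes were the 12 highest in wt, the genes at 1 CPM or more in cis SSP, up to 5 called genes per direction for carboplatin, medium and interaction in wt, 3 genes on each side of each threshold, genes on the lists and genes within 1 Mb of each other. The role groups, other named genes and the comparisons of cis -SG carbo with cis carbo and with cis -SG were added after values were seen. Some genes are not reported here by name.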

Additional observations from a re-analysis of the deposited data

Results flagged for a closer look

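Carboplatin changed 59 of the 146 genes differently in complete and -SG medium in wt cells, by the interaction term of the edgeR fit, where 27.7% of all genes tested were called. The untreated wt libraries in this fit also chose the genes, and 1 fit over the 36 libraries called 26. The differences in log2 fold change (without minus with serine and glycine) were 2.78 for IL32, 1.39 for IFI27, 1.33 for CLDN17, 1.06 for EBI3 and 1.04 for A1CF. They were -1.62 for ASS1, -1.44 for FRY, -1.17 for STRA6, -0.95 for INPP4B and -0.95 for OTOA. Groups of 3 libraries are too small for a test of outlying libraries.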

How the results depend on the processing

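No paired analysis was possible because library numbers run through the whole series, 1 to 36, so that no number is shared by samples of different conditions. The count of the 146 genes was 104 at a wt threshold of 10 CPM, 111 at a cis threshold of 0.1 CPM and 143 to 147 without 1 of the 6 untreated wt and cis libraries. The count of returned genes was 8 or 9 without a cis SSP library, 7 in cis SSP -SG and 10 in cis SSP carbo. Of the 146 genes, those called were 146 without any library in wt against cis with carboplatin and with both, 145 in -SG medium, 144 to 145 in cis SSP -SG against wt -SG, 123 to 126 and 104 to 116 for carboplatin in wt in complete and -SG medium, 83 to 94 for -SG in wt and 52 to 70 for the interaction. Few of the 146 passed the filter in cis and cis SSP cells, and their counts moved most. For cis SSP against cis they were, in -SG medium, 13 to 16 without a library, 23 with DESeq2, 27 with no filter and 41 in 1 fit over the 36 libraries. With carboplatin they were 12 to 14, 25 with no filter and 28 in 1 fit, and with both 17 to 20, 30 and 44. For carboplatin in cis SSP -SG cells they were 0 to 5, 1 with DESeq2 and 7 in 1 fit, and for medium in cis SSP carbo cells 0 without any library. In wt, 1 fit gave 36 for -SG and 26 for the interaction. For medium with carboplatin in wt they were 0 to 30, and 12 with no filter. For the added comparisons, cis -SG carbo against cis carbo gave 7 to 12, 13 with DESeq2, 23 with no filter and 29 in 1 fit, and against cis -SG 0 to 4, 1 with DESeq2 and 4 with no filter. Of the 30 counts that moved beyond 1.5-fold, all are in these ranges and values, and 169 did not. Depth limits the genes under 0.2 CPM, which have at most a few counts.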
